A study of Caenorhabditis elegans with 2 samples.

Results

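The histone genes of Caenorhabditis elegans were examined for binding of HLH-8, the worm member of the Twist family of basic helix-loop-helix transcription factors. Members were all nuclear protein-coding genes with a name beginning his- in the Ensembl WBcel235 annotation, which gave 72 of 19973 genes. The annotation uses only 50 distinct names for these 72 genes, because identical copies share a name, so copies are called here by their RefSeq symbols at the same coordinates. Neighbouring histone genes less than 5000 bp apart were also counted as 1 cluster, which gave 19 clusters, 14 of them with 2 or more genes and 5 with a single gene. By chromosome, 2 genes lay on I, 14 on II, 3 on III, 22 on IV, 27 on V and 4 on X.

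The study was chromatin immunoprecipitation sequencing (ChIP-seq), which sequences the DNA that is pulled down with a protein. It had 1 group of 2 biological replicates and no second condition. Both replicates were whole hermaphrodite embryos of strain OP63, labelled late embryonic and 3.5 hours past synchronization by egg bleaching. The strain is a transgenic line in which HLH-8 carries GFP-FLAG at its C terminus, the chromatin was sonicated, and the antibody was against GFP, so the values describe the tagged protein averaged over all cells of the embryo. Details of the transgene's promoter and copy number were not given in the sources used here, and untagged controls were not analysed here.

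The deposited ce11 lists numbered 24268 and 23945 candidates for replicates 1 and 2, 25904 candidates for the replicates together (the pooled list) and 1120 optimal peaks kept by the authors' reproducibility step. The candidate lists hold background on purpose. The signal of a peak is the authors' own value in arbitrary units, and its rank is its place by signal in the pooled list. The lowest optimal signal was 57.4, against a median of 17.1 over the pooled list. No read counts were used, so the depth behind a signal is unknown.

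Core histones H2A, H2B, H3 and H4 package DNA into nucleosomes, and H1 binds the linker DNA between them. Most C. elegans core histone genes are intronless copies expressed during DNA replication and arranged as divergent pairs that share 1 upstream region, H2A with H2B and H3 with H4. The H3.3 genes encode a replacement form of H3 that is used outside replication. Basic helix-loop-helix factors such as HLH-8 bind as dimers to E-boxes, the sequence CANNTG, and HLH-8 is best known for its role in the mesodermal M lineage.

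Among the 72 genes were 17 for H2A, 16 for H2B, 15 for H3, 16 for H4, 5 for H3.3 (his-69, his-70, his-71, his-72 and his-74) and 1 for H1 (his-24), besides 2 short genes with a partial histone product (his-39 and his-73). In the annotation 8 genes had introns, his-24, his-35, his-37, his-41, his-57, his-71, his-72 and his-74, and these same 8 had an annotated 5′ UTR. For the other 64 the annotated 5′ end is the start codon. Positions below count bp from that 5′ end, with negative numbers upstream.

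The sequences below are 101 bp centred on 3 of the strongest pooled summits of histone genes, 5′ to 3′ on the plus strand of ce11, with E-boxes of either orientation in capitals. The first, chrV:9546955-9547055, is the optimal summit beside his-37, which encodes H4. The second, chrIV:7486346-7486446, lies between his-61 (H2A) and his-62 (H2B) and has no E-box. The third, chrIV:8334019-8334119, lies between his-31 (H4) and his-32 (H3).
his-35 and his-37 summit: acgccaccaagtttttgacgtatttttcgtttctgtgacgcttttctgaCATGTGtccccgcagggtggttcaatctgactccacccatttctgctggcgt
his-61 and his-62 summit: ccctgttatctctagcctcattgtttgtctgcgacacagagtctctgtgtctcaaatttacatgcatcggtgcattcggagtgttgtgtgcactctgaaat
his-31 and his-32 summit: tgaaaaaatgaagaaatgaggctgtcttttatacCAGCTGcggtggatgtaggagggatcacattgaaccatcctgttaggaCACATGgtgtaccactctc

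Copies of histone genes share their upstream regions to very different degrees. The next 3 sequences are the middles of divergent H3/H4 upstream regions on chromosome V, without the 50 bp beside each start codon, read from the H3 gene towards the H4 gene, with E-boxes and TATAAA (or its reverse complement TTTATA) in capitals. They are chrV:16042334-16042469 and chrV:8535028-8535163 on the plus strand, and chrV:8847755-8847892 on the minus strand.
his-2 and his-1: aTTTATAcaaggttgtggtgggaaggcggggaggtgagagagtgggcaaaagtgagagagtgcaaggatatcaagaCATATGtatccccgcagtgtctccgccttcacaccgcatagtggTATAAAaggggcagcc
his-6 and his-5: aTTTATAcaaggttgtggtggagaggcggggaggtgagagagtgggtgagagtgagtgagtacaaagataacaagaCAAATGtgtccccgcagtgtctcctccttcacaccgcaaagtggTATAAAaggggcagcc
his-49 and his-50: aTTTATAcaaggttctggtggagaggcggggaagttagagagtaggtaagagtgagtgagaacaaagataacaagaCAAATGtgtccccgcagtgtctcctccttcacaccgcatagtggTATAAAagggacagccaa

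A histone gene counted as having a site when a summit lay between 2000 bp upstream and 500 bp downstream of the 5′ end, and 1 summit counted for every gene whose window held it. An optimal summit was found for 4 of 72 histone genes (5.56%, exact 95% interval 1.53 to 13.6), his-67, his-68, his-35 and his-37, against 5.42% of all nuclear protein-coding genes. These 4 genes shared 2 distinct summits, in 2 of 19 clusters. A pooled candidate was found for 38 of 72 histone genes (52.8%, interval 40.7 to 64.7), against 50.7% of all genes. Both shares are near those of all genes, and all genes' shares lie within both intervals. By cluster, 15 of 19 held a pooled candidate. A cluster can join the windows of several genes, so the shares of all genes are no background for cluster counts. No share for like regions was counted. The 38 genes drew on 39 distinct summits in 67 pairs of gene and summit. Intervals of this kind run over genes or sites, which are not independent replicates, least of all where neighbouring copies share a summit.

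The replicates gave similar counts. A candidate was listed in the window of 34 histone genes in replicate 1 (47.2%, against 49.7% of all genes) and of 32 in replicate 2 (44.4%, against 49.0%). In both replicates one was listed for 28 histone genes (38.9%, against 33.7%). Of the 34 histone genes without a pooled candidate, 3 (his-44, his-48 and his-17) had one in 1 replicate, and 31 had none in any list. The share of all genes with none in any list is not given here, so the 31 have no background.

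The strongest site lay between his-67, an H4 gene at 9988452 to 9988763 on chromosome I, and his-68, an H2A gene at 9989132 to 9989515. They point away from each other, and the summit was at -200 for his-67 and -169 for his-68. Its signal was 52.4 and 45.8 in replicates 1 and 2, and 93.1 in the pooled list, rank 367, with a replicate mean of 49.1 ± 4.65 (SD, n = 2). Both replicates therefore listed this site at nearly the same height. The window of alg-5, an Argonaute gene, also held the summit, but the nearest 5′ end was that of his-68. The 101 bp around it had no E-box and held the repeat GAGAGA.

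The other optimal site lay at position 9547005 on chromosome V, in the cluster of his-35 (H2A, 9544659 to 9545288), his-41 (H2B, 9545536 to 9546264) and his-37 (H4, 9547105 to 9547607). It was at -100 for his-37 and at -1717 for his-35, beyond the nearer his-41. Its signal was 37.4 and 32.3 in replicates 1 and 2, and 73.9 in the pooled list, rank 655, with a replicate mean of 34.8 ± 3.57 (SD, n = 2). These 3 genes have introns and an annotated 5′ UTR, unlike most core histone genes. The E-box in the sequence printed above is of the class CACATG. Both optimal sites had the deposited -log10 q of 3.57, a value shared by the 2 candidates ranked next to them at histone genes.

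**Figure D1:**
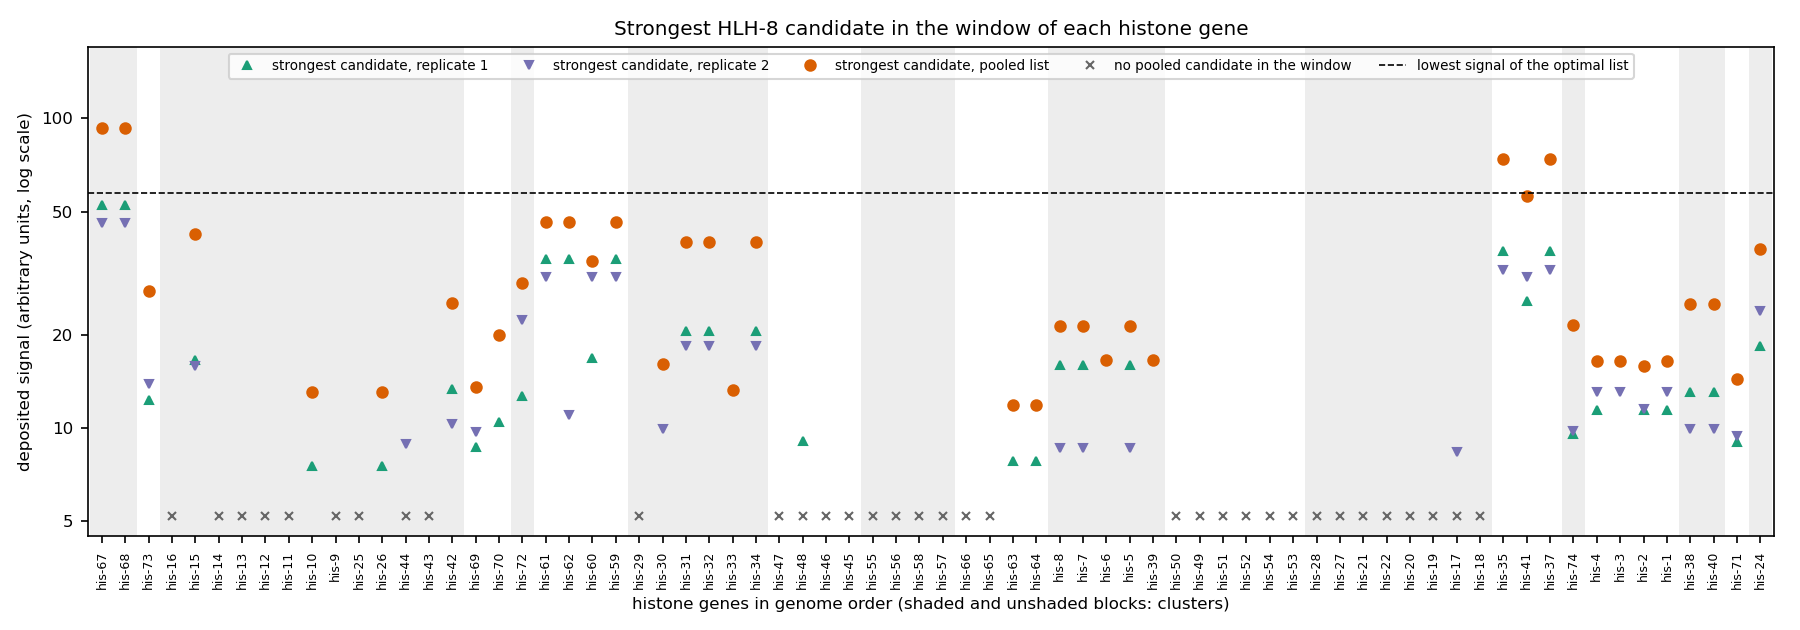
The horizontal axis gives the 72 histone genes in genome order, with shaded and unshaded blocks for the 19 clusters, and the vertical axis the deposited signal on a log scale in arbitrary units. Circles are the strongest pooled candidate in each gene's window, triangles the strongest in replicate 1 (up) and replicate 2 (down), and crosses the 34 genes with no pooled candidate. The dashed line is the lowest optimal signal, 57.4, and his-67, his-68, his-35 and his-37 stand above it.

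Just below the optimal list came his-41, with a summit at -1118, a pooled signal of 56.3 and rank 1171. Its signals were 25.8 in replicate 1 and 30.8 in replicate 2, a mean of 28.3 ± 3.55 (SD, n = 2). The 5′ end nearest to this summit was that of mdf-1, a spindle checkpoint gene, at -192, so the summit is closer to another gene than to his-41. A weaker summit lay at 23 within the 5′ UTR of his-41, with 14.5 and 15.9 in replicates 1 and 2, and 28.8 in the pooled list. The plot of 2 histone loci shows these sites beside the genes.

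The cluster of his-61 (H2A), his-62 (H2B), his-60 (H4) and his-59 (H3) on chromosome IV held the next site, the second sequence printed above. Its summit was at -179 for his-61, -149 for his-62 and -1853 for his-59. The signal was 35.2 and 11.0 in replicates 1 and 2, and 46.2 in the pooled list, rank 1689, with a mean of 23.1 ± 17.1 (SD, n = 2). The replicates differed here more than at the optimal histone sites. The 1120 strongest candidates of replicate 1 alone gave 7 histone genes, the 4 above with his-59, his-61 and his-62, against 5.28% of all genes. Those of replicate 2 alone gave the same 4 genes, against 5.27% of all genes. The H4 gene his-60 had its strongest pooled candidate at 9, inside its coding sequence, with a signal of 34.6, rank 2816. The nearest candidate of replicate 2, with a signal of 22.9, lay within 200 bp of it, and replicate 1 listed none there. A stronger candidate of replicate 2, with 30.8 and rank 1178 in that replicate's list, also lay within 200 bp.

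**Figure D2:**
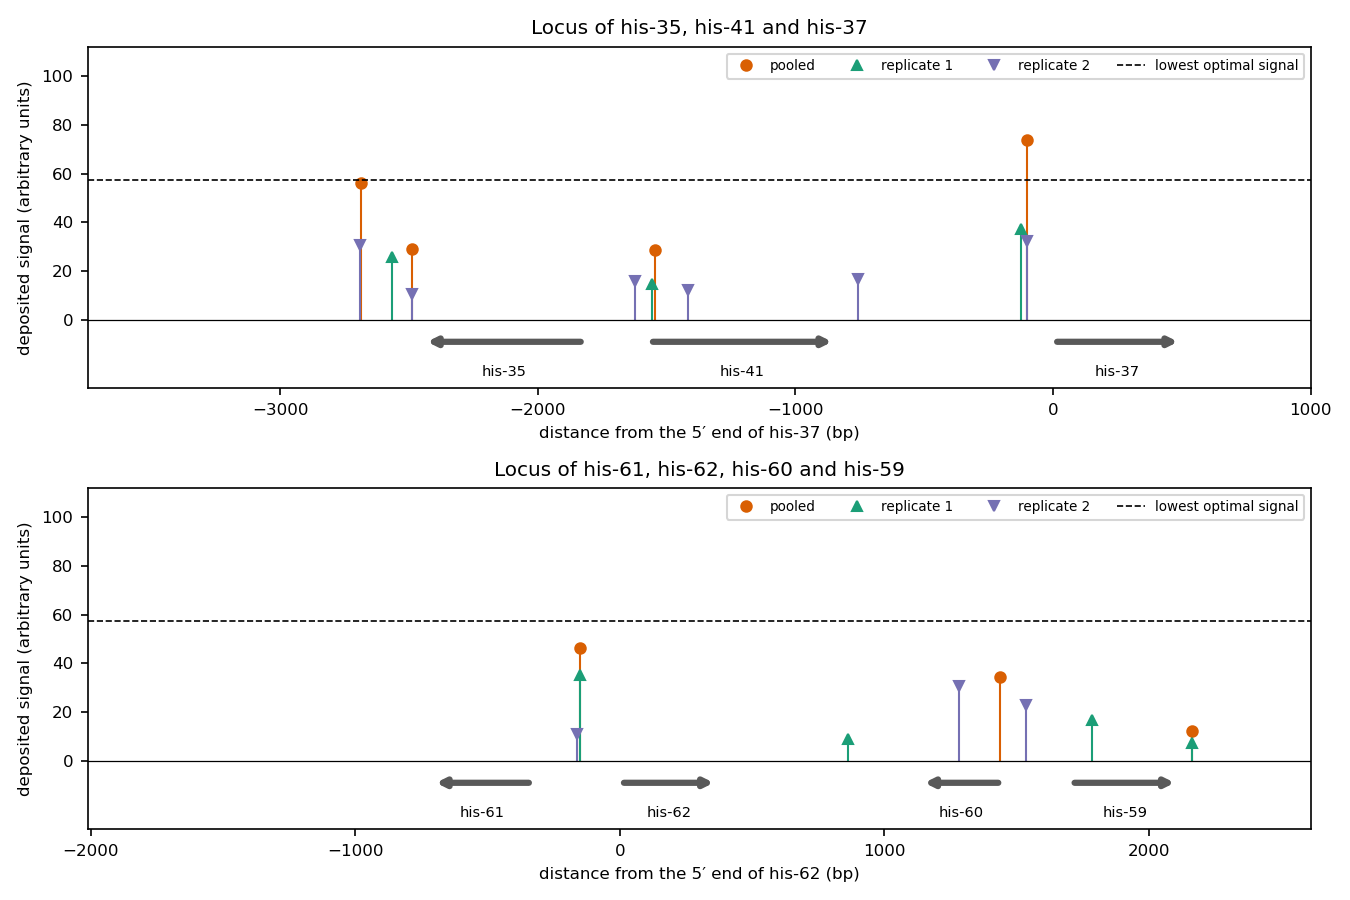
Candidate summits at the his-35, his-41 and his-37 locus (upper panel) and the his-61, his-62, his-60 and his-59 locus (lower panel), with distance in bp from the 5′ end of his-37 or his-62 on the horizontal axis and deposited signal in arbitrary units on the vertical axis. Circles are pooled candidates, triangles those of replicate 1 (up) and replicate 2 (down), arrows are the genes in their direction, and the dashed line is the lowest optimal signal; the his-37 summit at 73.9 is the only pooled one above it in these panels.

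The remaining strong candidates were more even between replicates. The H2B gene his-15 had a summit at -820, within a 3′ UTR of the annotation and nearer to the 5′ end of his-16 (592), with 16.6 and 15.8 in replicates 1 and 2, and 42.4 in the pooled list (replicate mean 16.2 ± 0.543, SD, n = 2). The pair his-31 (H4) and his-32 (H3) had the third summit printed above at -86 and -236, which also fell in the window of the H2B gene his-34 at -1903. Its signals were 20.7 and 18.4 in replicates 1 and 2, and 39.8 in the pooled list (mean 19.5 ± 1.61, SD, n = 2). The H1 gene his-24, at 14490094 to 14491119 on the X chromosome, had a summit at 49 in its coding sequence, with 18.4 and 23.9 in replicates 1 and 2, and 38.0 in the pooled list (mean 21.1 ± 3.94, SD, n = 2). None of these 3 sites was in the optimal list, and each was listed in both replicates.

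Over the 38 histone genes with a pooled candidate, the strongest candidate had a median signal of 23.3 (11.9 to 93.1), against 20.4 over the 10124 such genes in all. Over distinct summits the median was 19.6 for the 39 at histone genes and 17.8 for the 11480 in any gene window. By rank, 20 of the 39 (51.3%, interval 34.8 to 67.6) were among the 10000 strongest pooled candidates. Those make up 38.6% of the whole pooled list, a share within that interval. Against gene windows, the median rank was 9511 for the 39 and 11861 for the 11480.

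By histone class, a pooled candidate was found for 7 of 17 H2A genes, 6 of 16 H2B genes, 7 of 15 H3 genes and 10 of 16 H4 genes, against 50.7% of all genes. The exact intervals, 18.4% to 67.1% for H2A, 15.2% to 64.6% for H2B, 21.3% to 73.4% for H3 and 35.4% to 84.8% for H4, overlap and hold the share of all genes. All 5 H3.3 genes had one, at signals of 13.6 (his-69), 20.0 (his-70), 14.4 (his-71), 29.3 (his-72) and 21.5 (his-74), against 54.0% of all genes with windows at least 90% unique, the level of all 5. For his-69 and his-74 the strongest summit was nearer to the 5′ end of another gene, rcq-5 at -370 and W05B10.3 at -584. The H1 gene and both short genes also had a candidate. Of the 8 histone genes with introns 7 had a candidate (87.5%, interval 47.3 to 99.7), the exception being his-57, against 50.9% of all genes with introns. Of the 64 intronless histone genes 31 had one (48.4%), against 45.1% of all 685 intronless genes. The classes differed in how repetitive their windows were. For the H3.3 genes 91.8% to 100% of the 32-base words of the window occur only once in the genome, whereas the median was 5.47% for H2A, 47.4% for H2B, 39.9% for H3 and 53.5% for H4.

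Histone genes with and without a candidate differed in this uniqueness, with some overlap. Windows of the 38 genes with a pooled candidate were 82.2% unique at the median (24.1 to 100), and those of the 34 genes without one were 1.30% unique (0 to 58.1). Over all histone genes the median was 51.3%, against 99.8% over all genes. The handling of reads that match several places was not given in the sources used here. What part repetition has in the result was not tested.

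Within like levels of uniqueness the shares differed from the pooled figures. In windows under 50% unique, 6 of 35 histone genes had a pooled candidate (17.1%), against 11.5% of all genes. From 50% to under 90% unique, 21 of 26 had one (80.8%), against 40.0% of all genes. These 26 genes lie in 11 clusters, and the 21 lie in 8 of them and hold 19 distinct summits. At 90% unique or more, 11 of 11 had one (100%, interval from 71.5%), against 54.0% of all genes. These 11 genes form 7 clusters and hold 17 distinct summits. Optimal summits followed the same division, with 0 of 35 histone genes against 0.624% of all genes, 0 of 26 against 3.71%, and 4 of 11 (36.4%, interval 10.9 to 69.2) against 5.90%, the last resting on 2 summits in 2 clusters. Windows of neighbouring histone genes overlap, so the genes of a cluster are not separate observations.

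**Figure D3:**
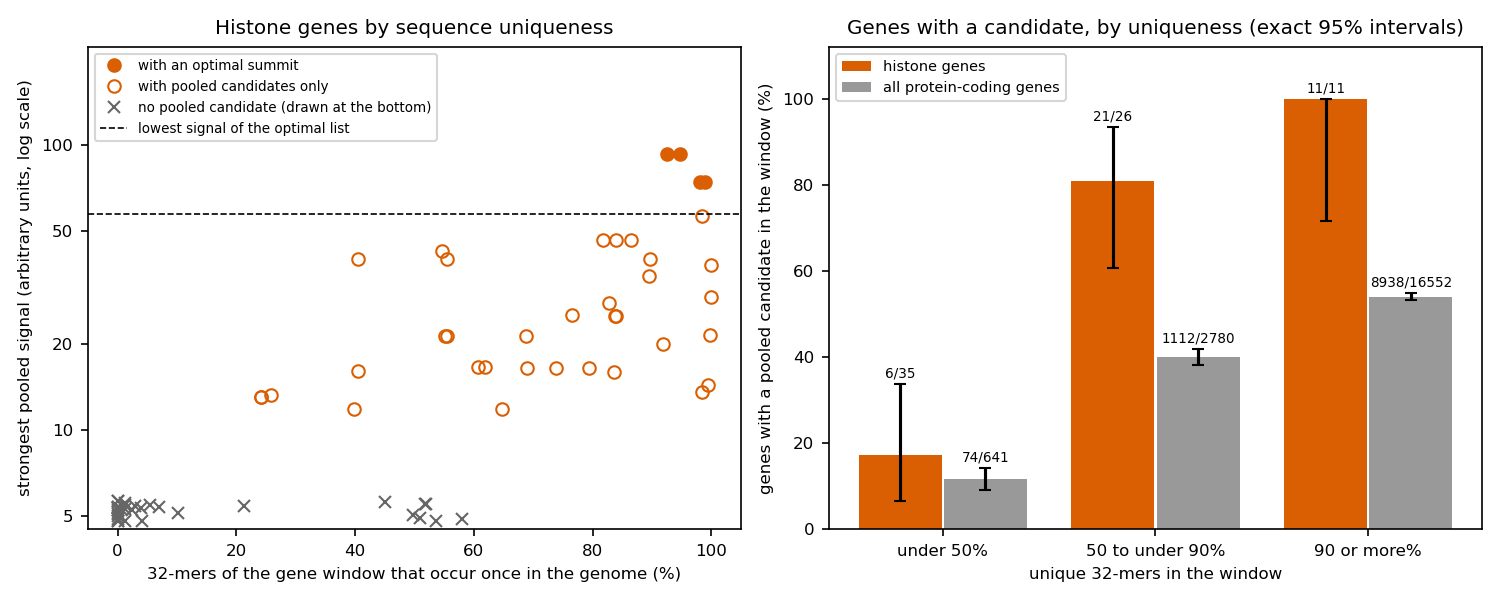
Left, each histone gene by the percent of 32-base words of its window that occur once in the genome (horizontal axis) and the signal of its strongest pooled candidate on a log scale in arbitrary units, with filled circles for genes with an optimal summit, open circles for other genes with candidates, and crosses at the bottom for the 34 genes with none (their heights carry no value). Right, the percent of histone genes (left bar of each pair) and of all protein-coding genes (right bar) with a pooled candidate at 3 levels of uniqueness, with exact 95% intervals and counts; the histone share is 17.1%, 80.8% and 100%.

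Summits were also counted per length. The merged windows of histone genes held 3.65 pooled summits per 10 kb, against 2.87 in the windows of all genes. Counted per 10 kb of unique sequence, the values were 6.71 and 3.08. That count keeps histone summits with surroundings as low as 51.4% unique, while only unique positions enter the length. The merged histone windows form 20 regions, and summits of the same region are not independent. Unique 32-base words started at 54.4% of positions in histone windows and 93.4% in all windows. Of the 39 pooled histone summits 0 had a 101-bp surrounding under 50% unique (interval up to 9.03%), against 2.21% of all nuclear pooled summits and 8.12% of the nuclear genome. In the replicate lists such surroundings were found for 3 of 32 histone summits in replicate 1 (9.38%, interval from 1.98%), against 2.07% of all, and for 4 of 38 in replicate 2 (10.5%, interval from 2.94%), against 2.08%.

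The 4 clusters with no pooled candidate were 2 on chromosome IV, his-45 to his-48 and his-55 to his-58, and 2 on chromosome V. The chromosome V clusters share a copied run of 6 genes, and the second also holds his-17 and his-18 outside that run. The run of his-50, his-49, his-51, his-52, his-54 and his-53, at 8847393 to 8854053, recurs at 8889488 to 8896148 as his-28, his-27, his-21, his-22, his-20 and his-19, over 6661 bp with 100% identity, inside an identical stretch of 15287 bp. The windows of these 12 genes were at most 1.17% unique. In the same second cluster the H3 gene his-17 was 58.1% unique, and its only candidate was in replicate 2, at 8.35. On chromosome II, a cluster of 13 genes held candidates for 4 of them, his-15, the second gene, and his-42, the last, with his-10 and his-26 at 13.1 between them.

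Summits were also counted in the shared upstream regions themselves. There were 31 divergent pairs of histone genes, 16 of H2A with H2B, 14 of H3 with H4 and 1 of H2A with H4, which took in 62 of the 72 genes. The gap between their 5′ ends was 227 to 368 bp (median 258), and the 31 gaps had 21 distinct sequences. A pooled summit lay in 6 of the 31 gaps (19.4%, interval 7.45 to 37.5), against 37.3% of all 1695 divergent pairs less than 1000 bp apart and 40.4% of the 465 pairs with a gap of 200 to 400 bp. An optimal summit lay in 1 (3.23%), that of his-67 and his-68, against 8.85% of all such pairs and 9.68% of those of like length.

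Gap uniqueness moved with these counts. Of the gaps under 50% unique 0 of 20 held a pooled summit (interval up to 16.8%), against 1 of all 33 pairs of like length (3.03%). From 50% to under 90% unique 2 of 3 held one, against 5 of 18 (27.8%). The pairs of like length include the histone pairs, which are 20 of the 33 and 3 of the 18. These shares, and those for optimal summits below, are therefore not a separate background. At 90% unique or more 4 of 8 held one (interval 15.7 to 84.3), against 44.0%, which lies within that interval. The 1 gap with an optimal summit was among these 8, against 10.1% of pairs of like length and uniqueness; 0 of the 3 gaps from 50% to under 90% unique held one, against 11.1%, and 0 of the 20 under 50% unique, against 3.03%. The 6 gaps with a summit were 80.5% to 100% unique, and the 25 without one had a median of 0% unique and a highest value of 100%. The sequences printed above show the range. The gap of his-2 (H3) and his-1 (H4) was 100% unique and held no pooled summit; the nearest pooled summit was at 43 inside his-2, with a signal of 15.0. The replicate summits matched to it had 9.30 in replicate 1, inside his-2, and 11.5 in replicate 2, at -13 within the gap. The gap of his-6 and his-5 was 80.5% unique and held a pooled summit of 16.6 that neither replicate listed within 200 bp. The gap of his-50 and his-49 was 0% unique and held none. In full length the his-50 gap was identical at 94.5% of aligned positions to that of his-6 and his-5, at 87.9% to that of his-2 and his-1, and at 100% to that of his-28 and his-27.

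Summits at histone genes were spread along the window much as those of all genes. Of the 67 pairs of gene and summit, 35.8% were from -500 to -1 and 20.9% from 0 to 500, against 31.5% and 17.0% over all genes. From -2000 to -1001 the shares were 29.9% and 33.8%. Of the 39 distinct summits 26 lay between genes, 10 in coding sequence, 1 in a 5′ UTR, 1 in a 3′ UTR and 1 in an intron. For 31 of the 39 the nearest protein-coding 5′ end was that of a histone gene. A tRNA, snoRNA or snRNA gene lay within 500 bp of 1 of them, the candidate of his-42.

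**Figure D4:**
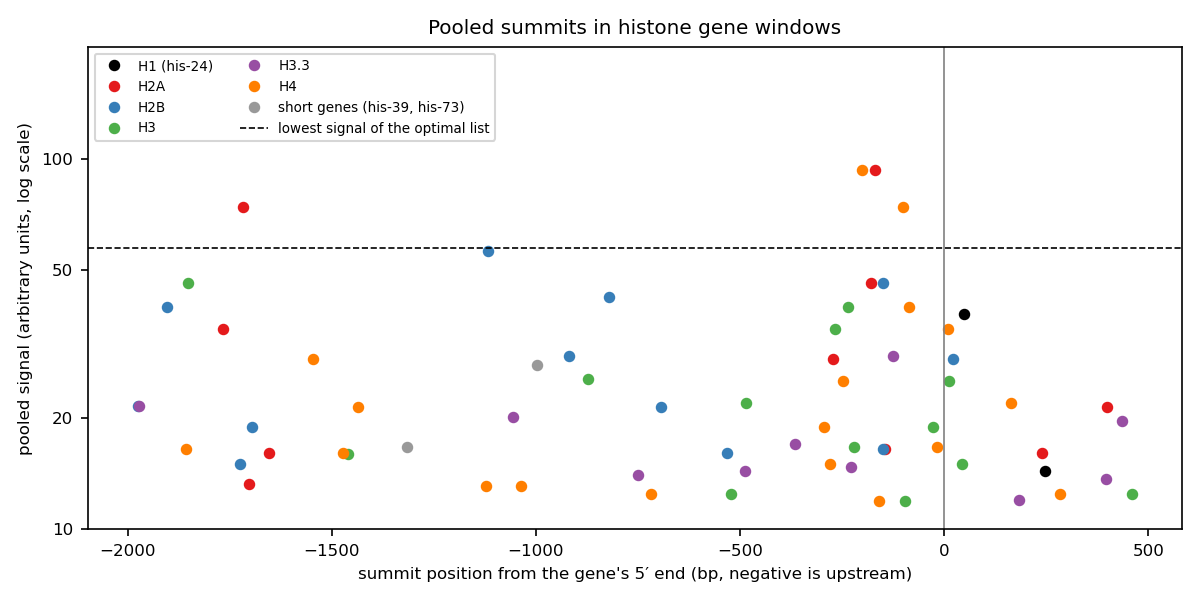
Each point is 1 pair of histone gene and pooled summit, with the summit's position from the gene's 5′ end in bp on the horizontal axis (negative is upstream) and the pooled signal on a log scale in arbitrary units on the vertical axis, coloured by histone class; the vertical line marks the 5′ end and the dashed line the lowest optimal signal. Summits above the dashed line are at -200, -169 and -100 for his-67, his-68 and his-37 and at -1717 for his-35.

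E-boxes were present at some histone summits. Within 50 bp of the summit 17 of 39 had at least 1 (43.6%, interval 27.8 to 60.4), against 34.8% of pooled summits in any gene window and 48.9% of the 1100 nuclear optimal summits. Of the 10 E-box classes, CAAGTG was the one found most often, at 5 of 39 histone summits (12.8%, interval 4.30 to 27.4). Its share was 4.46% of summits in any gene window and 6.55% of nuclear optimal summits, both within that interval. The class CAGATG, at 14.4% of nuclear optimal summits and 6.29% of pooled summits in gene windows, was at 0 of 39 histone summits (interval up to 9.03%). The share of optimal summits lies outside that interval and the share in gene windows within it. CATATG was also at 0 of 39, against 4.09% and 1.90%, both within the same interval. The repeat GAGAGA was at 7.69% of histone summits (interval 1.62 to 20.9), against 12.2% in any gene window and 26.1% of optimal summits. Only the latter lies outside the interval.

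The promoters of histone genes, taken as 250 bp before to 50 bp after the 5′ end, held several of these words more often than all promoters did, and some less often. In the 31 divergent pairs the promoters of both genes cover much of the same gap (median 258 bp). A word in a gap can therefore count for both genes, also among the distinct sequences. CAAGTG was in 61.1% of the 72 promoters and in 56.9% of their 51 distinct sequences, against 12.4% of all promoters. CAGATG was in 37.5% and 27.5%, against 14.2%, and CAACTG in 36.1% and 39.2%, against 13.4%. Any E-box was in 87.5% and 84.3%, against 69.4%. TATAAA, the core of a TATA box, was in 65.3% and 62.7%, against 37.9%. Motifs were searched on both strands, and a match is a description of the letters only. Of the 31 gaps of divergent pairs 26 had an E-box, 24 a TATAAA and 6 a pooled summit. The share of other divergent gaps with these words is not given here, so the word counts have no background. By gap uniqueness, a pooled summit lay in 0 of 20 gaps under 50% unique and 2 of 3 from 50% to under 90%. At 90% unique or more 4 of 8 held one. Whether the words go with summits was not tested.

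A longer word recurred in the printed sequences and was counted after they had been seen. TCCCCGCAG, on either strand, was in 26 of the 72 histone promoters (36.1%) and in 20 of the 51 distinct ones (39.2%), against 35 of all 19973 promoters (0.175%), a total that includes the 26. It lay in 12 of the 31 gaps of divergent pairs, 6 of H3 with H4, 5 of H2A with H2B and that of his-67 and his-68, and in the promoter of the H1 gene his-24. Within 50 bp of summits it was at 3 of 39 histone summits, those of his-67 and his-68 (93.1), of his-35 and his-37 (73.9) and of his-3 and his-4 (16.5). Of all 1100 nuclear optimal summits 2 had it, against 9 of the 11480 pooled summits in gene windows, a total that includes the 3. Both optimal summits with the word are the ones at histone genes. The his-35 and his-37 summit is among the printed sequences from which the word was taken, so its match was fixed by that choice. The printed upstream regions are likewise part of the promoter and gap counts. Since histone copies share sequence, and the promoters of a divergent pair overlap, these occurrences are not independent.

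The replicates were compared at each pooled summit of a histone gene. A replicate summit within 200 bp counted as a match, and 1 replicate summit could match more than 1 pooled summit. Of 39, 21 were matched in both replicates (53.8%, interval 37.2 to 69.9), 6 in replicate 1 only, 8 in replicate 2 only and 4 in neither, against 37.2% matched in both and 11.1% in neither among pooled summits in any gene window. Across the 21 sites replicate 2 over replicate 1 gave a median log2 ratio of -0.13, and the ratio ran from -1.67, at the his-61 and his-62 summit, to 0.87, at the his-72 summit.

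Other histone genes and genes that supply histones were listed for comparison, 25 in all: linker histones of the hil family, the variants htz-1, hcp-3 and cpar-1, and histone chaperones and processing factors. An optimal summit was found for 6 of them (24.0%, interval 9.36 to 45.1), against 5.42% of all genes, and a pooled candidate for 20 (80.0%, interval 59.3 to 93.2), against 50.7% of all genes. Most of the 25 windows were at least 90% unique, where the shares of all genes were 5.90% and 54.0%. The list was chosen with earlier results of these data known, so these shares are a description and no test of enrichment. The neighbours rba-1 and lin-53 also have the same strongest summit, which counts for both. The linker histone gene hil-7 had 45.3 and 19.1 in replicates 1 and 2, and 62.6 in the pooled list. The H2A.Z gene htz-1 had 16.1 and 34.0 in replicates 1 and 2, and 60.2 in the pooled list, at a summit nearer to the 5′ end of wapl-1. At both genes the replicates differed by more than at the optimal his- sites.

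Among the suppliers, chaf-2, a subunit gene of the chromatin assembly factor CAF-1, had the strongest site of the list, with 81.9 and 132 in replicates 1 and 2, and 218 in the pooled list, rank 35, at -204. Its partner chaf-1 had 38.1 and 20.2 in replicates 1 and 2, and 63.5 in the pooled list, at -125. The gene unc-85, which encodes the chaperone ASF1, had 43.7 and 48.4 in replicates 1 and 2, and 92.1 in the pooled list at -496, besides a second optimal summit. The chaperone gene nasp-2 had 36.4 and 61.4 in replicates 1 and 2, and 103 in the pooled list, at a summit nearer to C50B6.3. The gene cdl-1, whose product binds the stem-loop of histone mRNAs, had no optimal summit. Its strongest candidate had 9.73 and 15.3 in replicates 1 and 2, and 23.3 in the pooled list. Of the 25 genes, 14 were suppliers, of which 4 had an optimal summit, against 2 of the 11 histone genes of the list.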

How the data were processed

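Peak lists for build ce11 were used as deposited by the authors. Per the file inventories, candidate peaks were called for each replicate with a control and for both replicates pooled, and an irreproducible discovery rate step gave the optimal list. The aligner, the caller and the handling of multiply matching reads were not given in the sources used here. Column 7 holds the signal and column 9 the -log10 q as the authors deposited them, and column 10 gives the summit. Their scaling for depth was not given in the sources used here, so values were compared only within a list or between replicates at the same site. The ce10 lists were not used here.

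Genes came from Ensembl release 115 and sequence from RefSeq for the same assembly, with 1-based coordinates. Uniqueness is the share of 32-base words of a window that occur once in the genome on either strand. Motif windows reached 50 bp to either side of a summit. Copy sequences were aligned globally. Shares have exact Clopper-Pearson 95% intervals, and with 1 group no test was made. The depth per sample is unknown, and precision rests on 2 replicates. Python 3.11.15 was used with numpy 2.4.6, scipy 1.17.1, pandas 2.3.3, matplotlib 3.10.9 and Biopython 1.88. The uniqueness of 32-base and 50-base words and the assignment of summits to gene windows were checked on simulated data. Motif counts were not part of that check.

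The members, lists, motifs and named genes were chosen with earlier results of these data known. Named were every his- gene with an optimal summit, the 10 others with the strongest pooled candidate, and the genes of the comparison list with an optimal summit. Other named genes (the H3.3 genes, those of the arrays and upstream regions, and cdl-1) and the word TCCCCGCAG were chosen after their values or sequences were seen.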

Additional observations from a re-analysis of the deposited data

How the results depend on the processing

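Of 61 alternatives over 8 results, 42 stayed within the tolerance, which was 1.5 times for a count. With the 560 strongest peaks of the optimal list, 2 genes, 1 summit and 1 cluster kept an optimal summit. Giving each summit to the nearest 5′ end left 2 genes with an optimal summit, 22 with a pooled candidate, and a median strongest signal of 20.7. The 10000 strongest pooled candidates left 24 genes, a median of 38.9 and 85% of summits matched in both replicates. Windows at least 90% unique left 11 genes, and 19 by 50-base words (added after seeing the data), since fewer genes are counted by construction; the median was 38.0 for each, and the cause of its shift was not tested. The median was 25.4 for windows from 1000 bp upstream, 27.0 from 500 bp upstream to 200 bp downstream, and 21.5 without summits near small RNA genes. The share matched in both replicates was 35.9% within 100 bp, and the share with an E-box was 63.2% in the window from 500 bp upstream; the cause was not tested. With 1 replicate left out, 4 to 7 genes, 2 to 3 summits and 2 to 3 clusters had a site of optimal rank, and 32 to 34 genes and 15 to 16 clusters had a candidate.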
